A study of Mus musculus with 8 samples.

Results

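Choroid plexus marker genes were examined in RNA-seq counts of mouse cortex at postnatal day 1 (P1). The members are 10 genes named by symbol: *Ttr*, *Folr1*, *Clic6*, *Slc4a5*, *Cldn2*, *Sostdc1*, *Enpp2*, *Kl*, *Otx2* and *Prlr*. They were looked up by Ensembl identifier among the 48709 genes listed in every library, and all 10 were found. Of these, 8 were among the 16287 genes kept by the low-count filter of edgeR, while *Kl* and *Cldn2* did not pass. The genes were chosen as a measure of neighbouring tissue in the cortical samples with the counts of these libraries in view, so that their levels and their control against mutant values are given as a description.

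The choroid plexus is a sheet of secretory epithelium around a vascular core that hangs into the brain ventricles and makes cerebrospinal fluid. In the lateral ventricles it is attached to the medial wall of the cortex, next to the cortical hem and the hippocampal formation. Its epithelial cells arise from the dorsal midline under the control of the homeobox factor *Otx2*, secrete transthyretin in large amounts and carry fluid with apical and basal ion transporters.

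Whole-tissue RNA came from 4 control and 4 dcKO_Nex-Cre cortices, all on a C57BL6/J background, with 1 library per sample. In the dcKO_Nex-Cre cortex the floxed genes of the chromatin remodelling subunits BAF155 (*Smarcc1*) and BAF170 (*Smarcc2*) are deleted by Cre under control of the *Nex* locus, which is active in postmitotic principal neurons, so that both genes remain intact in choroid plexus epithelium and in all other cells without this Cre. The control animals are heterozygous for the floxed alleles and carry no Cre. The study asked how loss of the complex in young neurons alters the cortex, and the labels do not say whether the samples were pooled from several animals or came from separate litters, so that p-values measure only the spread between these libraries. Lane tag 2 was in the names of all controls and of dcKO_Nex-Cre replicates 1 and 2. The remaining pair of mutant libraries, replicates 3 and 4, had lane tag 8, a lane without a control.

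Total counts ranged from 17958641 to 35191912 per library, and 23596 to 24221 genes were detected in each. Mitochondrial transcripts took 2.33% to 6.87% of the counts. As a check of the labels, both deleted genes were lower in the mutant, *Smarcc2* by -0.81 (SE 0.09, edgeR adjusted p = 0.00267) and *Smarcc1* by -0.53 (SE 0.10, edgeR adjusted p = 0.0348) on the log2 scale. When 1 library was left out, *Smarcc2* passed in all 8 fits and *Smarcc1* in 2 of 8. Levels are given as CPM, which are counts corrected for library size and for the TMM factors of edgeR. Fold changes are given on the log2 scale as dcKO_Nex-Cre over control throughout.

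The summed level of the 10 genes varied far more between libraries of the same genotype than between the genotypes. Their summed level was 793, 46.6, 126 and 1404 CPM in control replicates 1 to 4, and 51.2, 610, 51.1 and 40.6 CPM in dcKO_Nex-Cre replicates 1 to 4. Control replicates 1 and 4 and dcKO_Nex-Cre replicate 2 were thus high, the other 5 libraries were low, and the groups overlapped. The highest control library exceeded the lowest 30.1-fold, and the highest dcKO_Nex-Cre library exceeded the lowest 15.0-fold. The group means were 592 ± 636 and 188 ± 281 CPM (control and dcKO_Nex-Cre, SD, n = 4 each), so that each SD was larger than its mean. As a share of all counts the members took between 0.00404% and 0.142% of a library. In bulk tissue, fewer choroid plexus cells and less RNA per cell cannot be told apart.

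**Figure D1:**
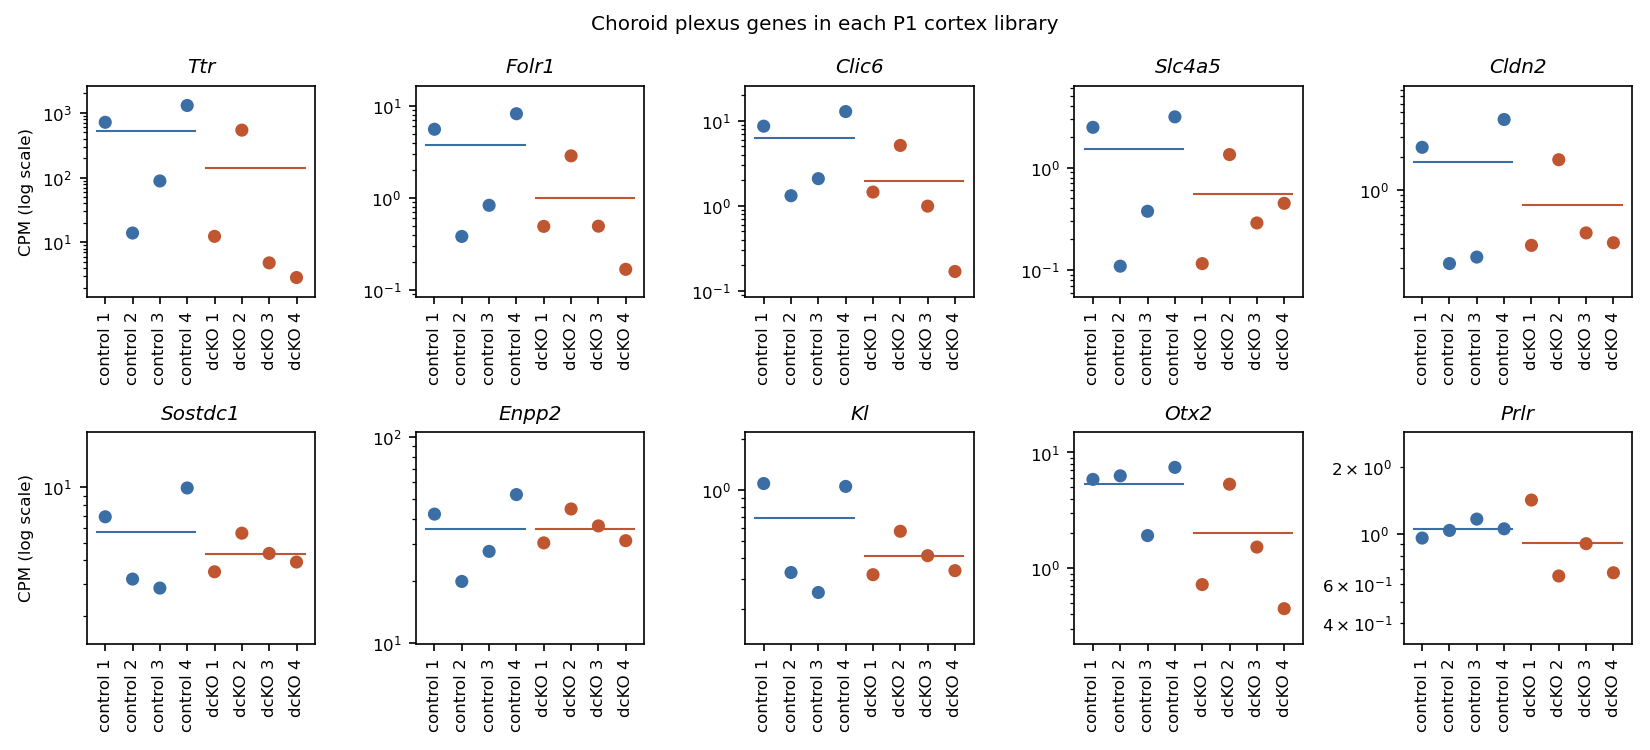
CPM of each of the 10 choroid plexus marker genes in the 4 control (blue) and 4 dcKO_Nex-Cre (orange) libraries on a log axis, with the arithmetic mean of each group as a line. Control 1, control 4 and dcKO_Nex-Cre 2 (dcKO 2) are the 3 highest libraries for 8 of the genes, with *Otx2* and *Prlr* as exceptions.

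*Ttr*, the gene of transthyretin, the carrier of thyroid hormone and retinol that dominates the secretory output of the epithelium, set most of this sum. It was at 717, 13.9, 88.9 and 1304 CPM in control replicates 1 to 4, and at 12.4, 542, 4.82 and 2.86 CPM in dcKO_Nex-Cre replicates 1 to 4. The raw counts behind these values ran from 51 in dcKO_Nex-Cre replicate 4 to 29624 in control replicate 4, so that the low libraries were still measured well above a single count. The 2 highest control libraries were above every mutant library, but dcKO_Nex-Cre replicate 2 lay above control replicates 2 and 3. *Ttr* made up 88.9% to 92.9% of the members' summed CPM in the 3 high libraries and 7.03% to 70.3% in the other 5. Its log2 fold change was -1.92 with a standard error of 2.07. Without dcKO_Nex-Cre replicate 2 it was -6.25, and without control replicate 4 it was -0.96, so that single libraries decided its size.

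*Folr1* and *Clic6* followed the same libraries over a smaller range. On GRCm38, *Folr1* (ENSMUSG00000001827) lies on the minus strand of chromosome 7 from 101858331 to 101870788, and *Clic6* (ENSMUSG00000022949) on the plus strand of chromosome 16 from 92485736 to 92541243. *Folr1*, which encodes the folate receptor that moves folate into the cerebrospinal fluid, was at 5.58, 0.383, 0.834 and 8.23 CPM in the control and at 0.492, 2.87, 0.495 and 0.168 CPM in the dcKO_Nex-Cre libraries. *Clic6*, a member of the chloride intracellular channel family, was at 8.65, 1.31, 2.08 and 12.8 CPM in the control and at 1.45, 5.13, 0.989 and 0.168 CPM in the dcKO_Nex-Cre libraries. Both were lowest in dcKO_Nex-Cre replicate 4, where only 3 reads were counted for each, and the groups overlapped through dcKO_Nex-Cre replicate 2. The log2 fold change was -1.87 (standard error 1.04) for *Folr1* and -1.65 (standard error 0.94) for *Clic6*. Without dcKO_Nex-Cre replicate 2 these became -3.19 and -2.72, and without control replicate 4 they became -1.15 and -1.02.

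The transporter *Slc4a5* and the junction gene *Cldn2* had fewer counts and the same high libraries. *Slc4a5* encodes the sodium bicarbonate cotransporter of the apical membrane, and its level was 2.47, 0.109, 0.375 and 3.12 CPM in the control against 0.116, 1.34, 0.289 and 0.449 CPM in the dcKO_Nex-Cre libraries. Its log2 fold change was -1.50 with a standard error of 0.89, and without control replicate 4 it was -0.88. Without dcKO_Nex-Cre replicate 2 the gene did not pass the filter, and no value was fitted. *Cldn2*, the claudin that forms cation and water pores between epithelial cells, was at 2.42, 0.219, 0.250 and 4.31 CPM in the control and at 0.318, 1.88, 0.412 and 0.336 CPM in the dcKO_Nex-Cre libraries. *Cldn2* failed the filter, since only the 3 high libraries carried it at an appreciable level, and no fold change was fitted.

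*Sostdc1*, *Enpp2* and *Kl* varied over a narrower range. *Sostdc1*, a secreted antagonist of BMP and WNT ligands, was at 6.91, 3.17, 2.83 and 9.90 CPM in the control and at 3.47, 5.63, 4.37 and 3.92 CPM in the dcKO_Nex-Cre libraries. *Enpp2* encodes autotaxin, the secreted enzyme that makes lysophosphatidic acid, and was at 42.1, 19.8, 27.8 and 52.3 CPM in the control and at 30.5, 44.6, 36.9 and 31.3 CPM in the dcKO_Nex-Cre libraries. *Kl*, the gene of the klotho co-receptor, was at 1.10, 0.328, 0.250 and 1.06 CPM in the control and at 0.318, 0.574, 0.412 and 0.336 CPM in the dcKO_Nex-Cre libraries. For all 3 genes control replicates 1 and 4 and dcKO_Nex-Cre replicate 2 were again highest. The control range spanned 3.49-fold for *Sostdc1*, 2.64-fold for *Enpp2* and 4.39-fold for *Kl*, against 93.5-fold for *Ttr*. In dcKO_Nex-Cre replicates 1, 3 and 4 *Kl* was level with *Cldn2*, and its highest value was below that of *Cldn2*. The log2 fold change of *Sostdc1* was -0.40 (standard error 0.36), and it became -0.62 without control replicate 3 and turned to 0.013 without control replicate 4. That of *Enpp2* was 0.01 (standard error 0.26), and it turned to -0.17 without control replicate 2 and became 0.26 without control replicate 4.

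*Otx2* (ENSMUSG00000021848, chromosome 14, 48657677 to 48673819, minus strand) and *Prlr* (ENSMUSG00000005268, chromosome 15, 10177238 to 10349180, plus strand) departed from the pattern. *Otx2*, the homeobox factor that the epithelium needs for its formation, was at 5.85, 6.29, 1.92 and 7.44 CPM in the control and at 0.724, 5.32, 1.53 and 0.449 CPM in the dcKO_Nex-Cre libraries. Control replicate 2, low in *Ttr*, was therefore its second highest library. Its log2 fold change was -1.40 (standard error 0.67), which became -2.54 without dcKO_Nex-Cre replicate 2. *Prlr*, the prolactin receptor, was nearly flat, at 0.961, 1.04, 1.17 and 1.06 CPM in the control and at 1.42, 0.651, 0.907 and 0.673 CPM in the dcKO_Nex-Cre libraries. It rested on 12 to 49 counts per library, its log2 fold change was -0.17 (standard error 0.28), and the library highest in *Ttr* did not stand out. The value was -0.50 without dcKO_Nex-Cre replicate 1 and -0.03 without dcKO_Nex-Cre replicate 2. *Otx2* shares exons with *Otx2os1* and *Enpp2* with *Gm26684*, both partners being antisense, and reads of the shared bases cannot be told apart if strand was ignored. The counts listed for these partners averaged 3.63 and 0.875 per library. *Otx2* also shares exons with *Gm49154* and *Prlr* with *Gm21973* on the same strand, where reads cannot be told apart by strand either.

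**Figure D2:**
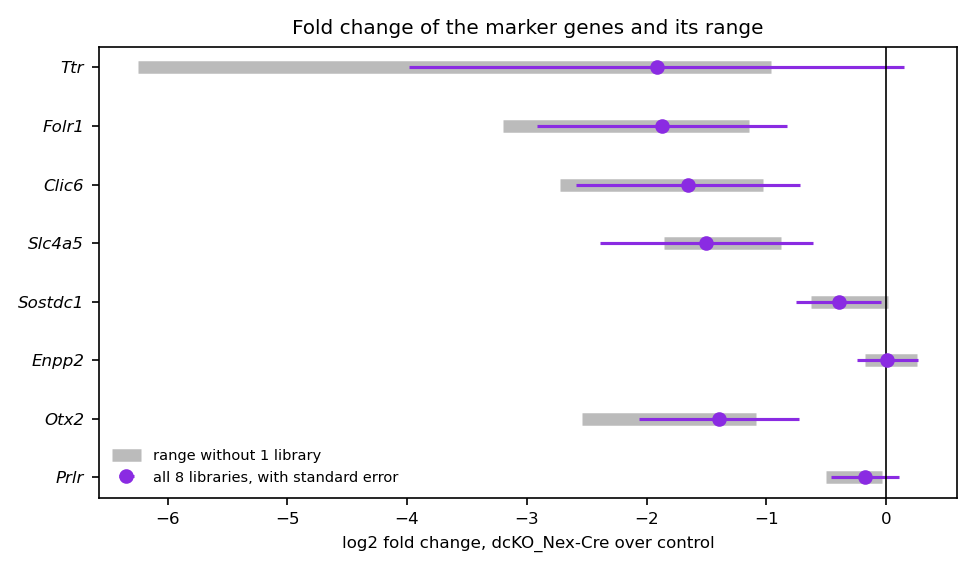
Log2 fold change of the 8 marker genes that passed the filter (points, with the standard error as bars) and its range over the fits that each left out 1 library (grey). The range of *Ttr* runs from -6.25 to -0.96, and those of *Enpp2* and *Sostdc1* cross 0. That of *Slc4a5* rests on 7 fits, since it did not pass the filter without dcKO_Nex-Cre replicate 2.

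None of the 8 tested members was called at an adjusted p under 0.05 by edgeR, beside 0.884% of all 16287 genes tested (0.51% lower and 0.375% higher in the dcKO_Nex-Cre cortex), and DESeq2 called 0 of them beside 3.03%. At an unadjusted p under 0.05 edgeR also called 0 of the 8, beside 13.6% of all genes. No member separated the groups without overlap, which 4.01% of all genes did with lower and 3.99% with higher values in the dcKO_Nex-Cre cortex. Among the 8, 7 had a log2 fold change below 0, beside 49.1% of all genes, and the median was -1.45 against 0.004 for all genes. Since the members were chosen on these libraries, nothing was read from these shares. Within lane tag 2, which leaves dcKO_Nex-Cre replicates 1 and 2, the median was -0.82.

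The spread within groups set these genes apart from most of the transcriptome. *Ttr* had an SD of log2 CPM within groups of 3.20, which ranked 3 among the 16287 genes, where the median was 0.18. *Folr1* (1.77, rank 27), *Clic6* (1.68, rank 31), *Slc4a5* (1.62, rank 36) and *Otx2* (1.20, rank 65) were also among the 100 genes with the largest spread. *Sostdc1* (0.64, rank 451), *Enpp2* (0.47, rank 1324) and *Prlr* (0.35, rank 2995) varied less. These ranks describe the values that chose the genes and carry no test.

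**Figure D3:**
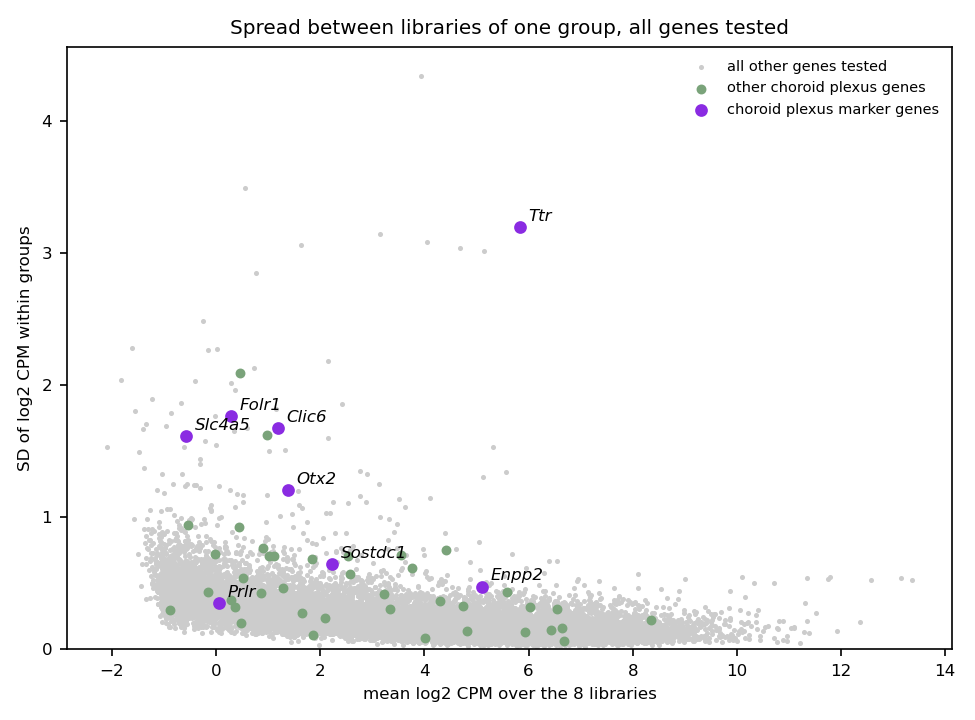
SD of log2 CPM between libraries of the same group against mean log2 CPM for the 16287 genes tested (grey), with the 8 tested marker genes in purple and other choroid plexus genes in green. *Ttr* combines a spread of 3.20 with a high mean, and 5 of the 8 marker genes are among the 100 with the largest spread.

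Of the 10 members, 8 had control replicates 1 and 4 and dcKO_Nex-Cre replicate 2 as their 3 highest libraries, *Ttr* itself among them, beside 1.81% of the genes tested and 1.89% of the genes with at least 8 counts over all libraries. The members were chosen on these libraries, and nothing was read from this share. Within the 3, control replicate 4 was highest for *Ttr* and *Enpp2*, while control replicates 1 and 4 were nearly level for *Kl*. These 3 libraries differed in genotype, carried the same lane tag 2, and their mitochondrial shares of 3.86%, 4.24% and 3.13% lay inside the range of the others. In them, the ratios to *Ttr* given here varied less than in the other 5 libraries. *Clic6* had 1.21, 0.986 and 0.946 counts per 100 *Ttr* counts in control 1, control 4 and dcKO_Nex-Cre 2. *Folr1* had 0.778, 0.631 and 0.529 and *Cldn2* had 0.338, 0.331 and 0.346 counts per 100 *Ttr* counts there. *Slc4a5* had 0.345, 0.240 and 0.247, and *Otx2* had 0.817, 0.570 and 0.981. In the other 5 libraries the same ratios ran from 2.34 to 20.5 for *Clic6*, from 0.938 to 10.3 for *Folr1* and from 0.281 to 11.8 for *Cldn2*. Control replicate 3, the highest of these 5 in *Ttr*, had the lowest value of each and was nearest to the 3 high libraries. *Enpp2* had 4.01 to 8.22 counts per 100 *Ttr* counts in the 3 high libraries and 1094 in dcKO_Nex-Cre replicate 4, where *Ttr* was lowest and *Enpp2* was at 31.3 CPM.

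Per kilobase of exon, the mean over the 8 libraries was 283 CPM for *Ttr*, 6.17 for *Enpp2*, 2.82 for *Sostdc1*, 1.04 for *Clic6*, 1.04 for *Folr1*, 0.874 for *Otx2*, 0.382 for *Cldn2*, 0.178 for *Slc4a5*, 0.0641 for *Prlr* and 0.0586 for *Kl*. On this scale *Ttr* exceeded *Enpp2* in 6 of the 8 libraries and lay below it in dcKO_Nex-Cre replicates 3 and 4. *Enpp2* exceeded *Sostdc1*, *Sostdc1* exceeded *Clic6*, *Otx2* exceeded *Cldn2* and *Cldn2* exceeded *Slc4a5* in all 8 libraries. *Clic6* and *Folr1* could not be ordered, with *Clic6* higher in 5 of 8 libraries, nor could *Folr1* and *Otx2* (3 of 8), *Slc4a5* and *Prlr* (4 of 8) or *Prlr* and *Kl* (5 of 8).

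The promoter sequences of 3 members are shown because these genes had the same 3 highest libraries. RefSeq promoters on GRCm38.p6 were at hand for 5 of the 10 members (*Kl*, *Slc4a5*, *Otx2*, *Prlr* and *Cldn2*), with 10 start sites, and the last 250 bases before each start were searched on both strands. Given here are the stretches outside annotated exons for *Cldn2* (chrX:139800558-139800807), *Kl* (chr5:150952357-150952606) and *Slc4a5* (chr6:83237293-83237374), all on the plus strand and ending at the base before the start, with a TATA box (TATAAA) in capitals.
Cldn2: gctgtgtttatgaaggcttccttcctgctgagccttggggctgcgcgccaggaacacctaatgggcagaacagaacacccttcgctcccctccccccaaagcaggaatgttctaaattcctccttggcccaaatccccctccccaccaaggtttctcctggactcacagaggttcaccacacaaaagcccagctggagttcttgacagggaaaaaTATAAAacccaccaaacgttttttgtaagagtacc
Kl: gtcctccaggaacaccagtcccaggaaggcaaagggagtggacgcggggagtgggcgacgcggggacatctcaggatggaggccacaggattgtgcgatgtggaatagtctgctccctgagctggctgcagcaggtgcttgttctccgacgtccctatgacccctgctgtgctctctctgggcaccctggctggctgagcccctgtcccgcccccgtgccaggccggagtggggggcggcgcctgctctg
Slc4a5: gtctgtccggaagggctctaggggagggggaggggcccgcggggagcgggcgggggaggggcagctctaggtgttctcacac
The TATA box of *Cldn2* begins at position -35 from the start. The *Kl* stretch and the *Slc4a5* stretch hold none of the 3 motifs searched. The OTX core TAATCC was found at 1 of the 10 start sites, in *Otx2* itself, beside 6.25% of all 32851 promoter windows. The forkhead core GTAAACA was found at 1 start site, in *Prlr*, beside 3.17% of all windows, and the TATA box at start sites of *Cldn2*, *Otx2* and *Slc4a5*, beside 12.4%. The OTX core of *Otx2*, at -211, lay in annotated exon. The TATA box match of *Slc4a5*, at -127, lay upstream of the stretch printed, and that of *Otx2* was at -192. No motif was common to the 3 genes printed, and a match in letters is only a description of the window.

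Genes outside the members with the closest pattern were found by the root-mean-square distance of centred log2 CPM over the 8 libraries to the mean pattern of the 8 tested members. Among genes with a mean of at least 1 CPM, the closest 10 were *Col8a2*, *Fmod*, *1500015O10Rik*, *Gpc3*, *Sulf1*, *Calml4*, *Msx1*, *Aqp1*, *Wfikkn2* and *Car14*, at distances of 0.45 to 0.65. Their distance was similar to that of *Folr1* (0.53) and *Clic6* (0.62). It was smaller than that of *Slc4a5* (0.71), *Sostdc1* (0.81), *Otx2* (0.82), *Enpp2* (0.96) or *Prlr* (1.26). *Ttr* was farthest (2.07), and its range was wider than the mean pattern. *Aqp1*, the water channel of the apical membrane, was at 9.19, 1.31, 1.17 and 15.4 CPM in the control and at 0.811, 3.71, 0.495 and 0.392 CPM in the dcKO_Nex-Cre libraries. *Wfikkn2*, a secreted protease inhibitor that binds TGF-beta family ligands, was at 7.50, 0.765, 1.21 and 15.4 CPM against 0.724, 7.77, 0.783 and 0.785 CPM. Of the 10, *Sulf1*, *Calml4*, *Msx1* and *Aqp1* stood on the list of other choroid plexus genes.

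**Figure D4:**
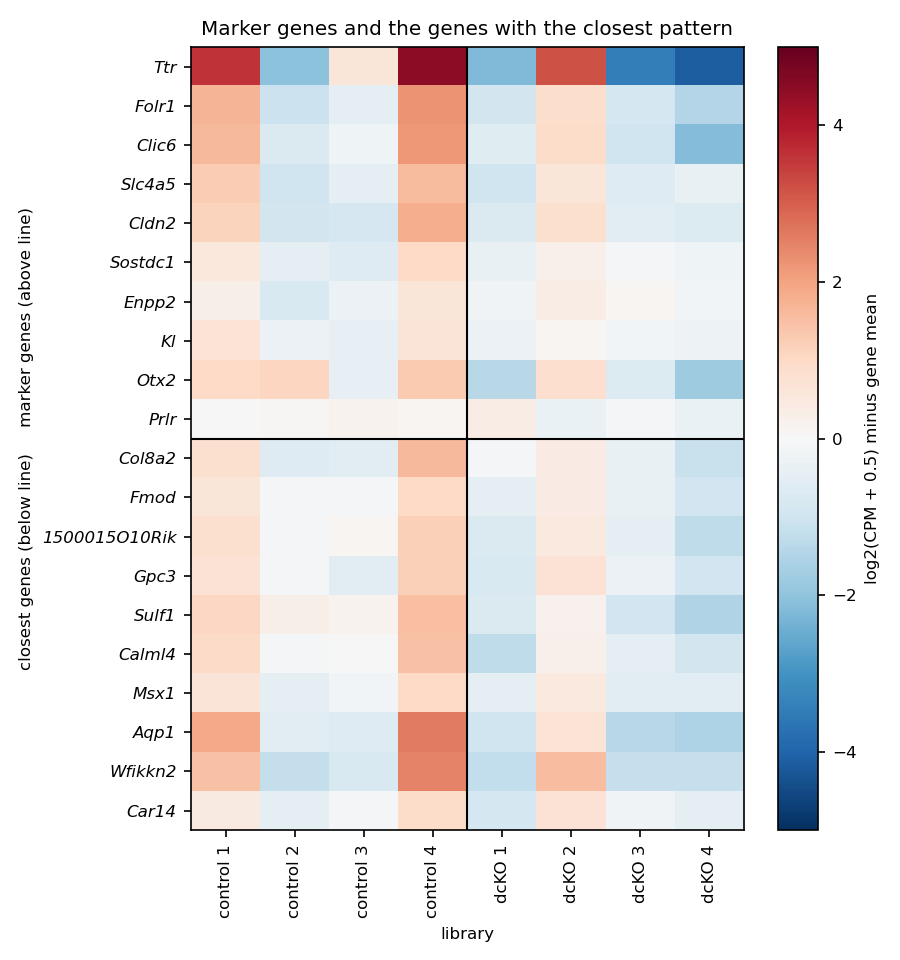
Log2(CPM + 0.5) of each gene minus its mean over the 8 libraries, for the 10 marker genes (above the line) and the 10 genes with the closest pattern (below), red above and blue below the gene's mean. Control 1, control 4 and dcKO_Nex-Cre 2 (dcKO 2) are the reddest libraries for most of the marker genes, *Prlr* is nearly white, and *Otx2* is also red in control 2.

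A list of 54 other choroid plexus genes, of which 53 were matched and 39 were tested, gave values that the choice of members did not use directly, although it was drawn up with earlier results known. Of the 39, 1 was called lower in the dcKO_Nex-Cre cortex and 0 higher, a share of 2.56% beside 0.884% of all genes. At an unadjusted p under 0.05 from edgeR, 9 were lower, beside 7.05% of all genes, and 2 higher. Over all genes, 13.6% passed this threshold in either direction. In all 26 were below 0 and 13 above, where 49.1% of all genes were below 0. The median log2 fold change was -0.16 against 0.004 for all genes. The summed level of the list was 1153 ± 157 CPM against 1090 ± 91.2 CPM (control and dcKO_Nex-Cre, SD, n = 4 each), a difference that did not exceed the spread (log2 difference -0.08, two-sided exact permutation test p = 0.543). Many genes of the list are also expressed in cortex, and those dominated the sum.

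The single call was *Wfdc2*, which encodes a secreted protein with whey acidic protein domains. It was at 1.83, 0.875, 1.29 and 1.85 CPM in the control and at 0.376, 0.651, 0.536 and 0.336 CPM in the dcKO_Nex-Cre libraries, without overlap of the groups. The log2 fold change was -1.61 (SE 0.32, edgeR adjusted p = 0.0439). The call was lost in 6 of the 8 fits that left out 1 library, in lane tag 2 alone, with the replicate number as a block, and with the members' mean level as a covariate, where the log2 fold change was -1.18. *Wfdc2* did not share the 3 highest libraries of *Ttr*, with dcKO_Nex-Cre replicate 2 below every control library.

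By role, the median log2 fold change was -0.75 for secreted proteins and enzymes, -0.16 for transporters and channels, and -0.09 for junction and cytoskeleton genes. It was 0.11 for retinoid genes, 0.13 for transcription factors and 0.05 for receptors. The most negative value of a single gene was among the transporters and channels. *Kcne2*, the potassium channel subunit, was at 7.87, 0.273, 1.21 and 13.9 CPM in the control and at 0.174, 3.56, 0.289 and 0.617 CPM in the dcKO_Nex-Cre libraries, with the same 3 highest libraries as *Ttr* and a log2 fold change of -2.33 (SE 1.26, edgeR adjusted p = 0.459). Per 100 *Ttr* counts it had 1.10 and 1.07 counts in control replicates 1 and 4 and 0.656 in dcKO_Nex-Cre replicate 2, and *Aqp1* had 1.28, 1.18 and 0.685. Both were thus lower relative to *Ttr* in this single mutant library. In the other 5 libraries the ratio ran from 1.36 to 21.6 for *Kcne2* and from 1.31 to 13.7 for *Aqp1*. The abundant members of the role, *Atp1b1* (323 ± 58.3 and 338 ± 35.7 CPM, SD, n = 4 each), a sodium pump subunit, *Slc29a4* (108 ± 2.80 and 96.4 ± 5.14 CPM), a monoamine and nucleoside transporter, and *Slc31a1* (61.6 ± 7.52 and 60.1 ± 1.28 CPM), a copper transporter, are expressed outside the plexus as well, and none passed the test. Of the 14 transporters and channels matched, 6 had the 3 highest libraries of *Ttr*, as had 8 of 13 secreted proteins and enzymes, 3 of 9 junction and cytoskeleton genes, 1 of 8 transcription factors, 0 of 4 retinoid genes and 0 of 5 receptors. Over the list this was 18 of 53, beside 1.89% of genes with at least 8 counts.

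*Tmem72*, *Kcnj13* and *Mfrp* were picked after their values were seen, for being high in the same libraries as *Ttr*, and are given as examples only. *Tmem72* was at 2.84, 0.109, 0.375 and 6.51 CPM in the control and at 0.174, 1.49, 0.165 and 0.224 CPM in the dcKO_Nex-Cre libraries. *Kcnj13*, the inward rectifier of the apical membrane, had 18, 0, 5 and 22 counts in the control and 1, 14, 1 and 2 counts in the dcKO_Nex-Cre libraries. *Mfrp* had 19, 0, 3 and 29 counts against 4, 13, 1 and 1. The other abundant genes of the list did not have these 3 highest libraries apart from *Slc31a1* and *Igfbp2*, a binding protein of insulin-like growth factors, which was at 105 ± 15.3 and 95.5 ± 5.66 CPM. *Igf2*, the growth factor made by choroid plexus and meninges, was at 50.7 ± 10.6 and 48.2 ± 19.3 CPM. *Ezr*, the ezrin of apical microvilli (92.4 ± 17.3 and 98.6 ± 20.1 CPM), *Rfx3*, a factor of ciliated cells (83.0 ± 10.3 and 90.8 ± 7.69 CPM), and *Vat1l* (74.6 ± 13.996 and 59.4 ± 13.97 CPM) did not pass the test. *Cldn1*, a claudin of tight junctions, had the largest positive value, with 7.76 ± 2.56 CPM in the control, 11.7 ± 2.56 CPM in the dcKO_Nex-Cre cortex and a log2 fold change of 0.59 (SE 0.23, edgeR adjusted p = 0.298).

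**Figure D5:**
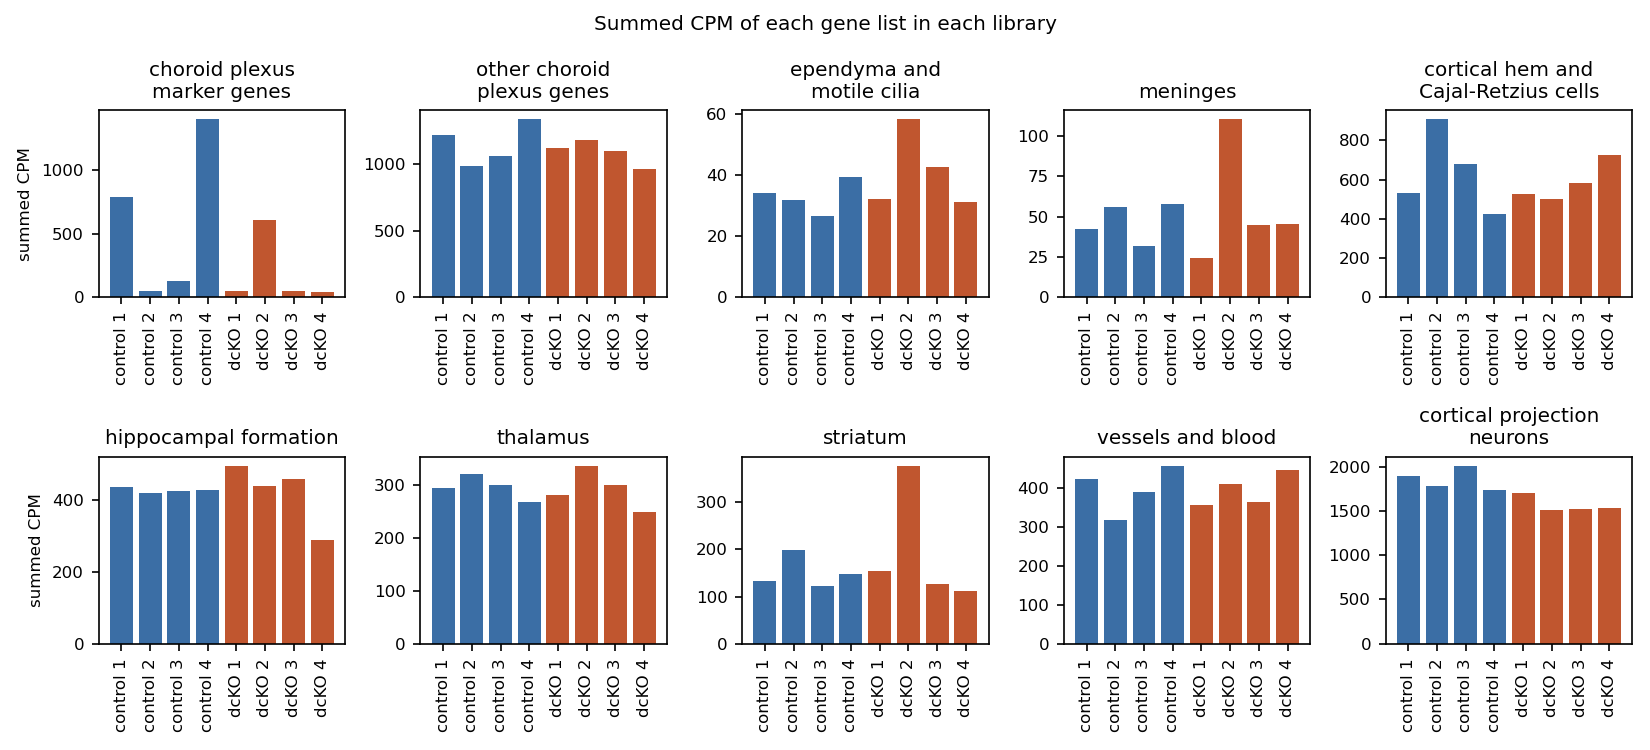
Summed CPM of the choroid plexus marker genes, of other choroid plexus genes and of 8 lists of neighbouring structures or cell types in each control (blue) and dcKO_Nex-Cre (orange) library, each on its own axis from 0. The marker genes are high in control 1, control 4 and dcKO_Nex-Cre 2 (dcKO 2). The striatum, meninges, ependyma and thalamus lists are highest in dcKO_Nex-Cre 2 and the cortical hem list in control 2.

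Of 90 genes on 8 lists of other structures or cell types that a dissected cortex can carry, 5 had the 3 highest libraries of *Ttr*, beside 1.89% of genes with at least 8 counts. Of the 87 genes tested, 2 were called lower, beside 0.51% of all genes, and 2 higher, beside 0.375%. Lists of hippocampal formation, thalamus, striatum, vessels and blood, and cortical projection neurons held 0 genes with the 3 highest libraries of *Ttr*, the ependyma and meninges lists held 2 each, and the list of cortical hem and Cajal-Retzius cells held 1. The striatum list summed to 378 CPM in dcKO_Nex-Cre replicate 2, against 111 to 200 CPM in the other 7 libraries, and the meninges list summed to 110 CPM there, against 24.2 to 57.7 CPM. The same library was highest for the ependyma and motile cilia list, at 58.3 against 26.4 to 42.5 CPM. It was also highest for the thalamus list, at 337 against 250 to 321 CPM. The part of these tissues in the choroid plexus values of that library was not tested. In the control the library high in *Otx2* but low in *Ttr*, control replicate 2, held 27.3 CPM of *Zic4*, 20.3 CPM of *Isl1* and 21.9 CPM of *Rarb*, and only dcKO_Nex-Cre replicate 2 was higher, at 33.8, 35.3 and 51.0 CPM. *Zic4*, *Isl1* and *Rarb*, transcription factors of medial, septal or striatal territories, were picked after their values were seen, and their relation to *Otx2* was not tested.

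The level of a listed gene in these samples was not taken as a measure of the tissue named. Among the genes of these lists with the highest mean CPM, *Col1a2* and *Col3a1* of the meninges were at 9.52 ± 2.78 and 8.06 ± 2.85 CPM in the control and at 12.6 ± 9.96 and 9.996 ± 9.93 CPM in the dcKO_Nex-Cre cortex (SD, n = 4). *Reln* and *Ndnf*, made by Cajal-Retzius and other layer 1 cells, were at 496 ± 166 and 81.2 ± 27.2 CPM against 461 ± 75.0 and 74.0 ± 15.1 CPM, and neither passed the test. No gene passed in the hippocampal formation list, led by *Zbtb20* (122 ± 22.6 and 142 ± 24.1 CPM) and *Nrp2* (137 ± 20.8 and 123 ± 48.9 CPM), in the thalamus list, led by *Slc17a6* (62.9 ± 6.399 and 54.5 ± 7.18 CPM) and *Lhx2* (135 ± 26.04 and 138 ± 18.1 CPM), or in the list of vessels and blood, led by *Rgs5* (134 ± 16.8 and 100.5 ± 11.9 CPM) and *Hbb-bs* (71.8 ± 16.8 and 83.25 ± 39.1 CPM). *Tekt1*, a tektin of motile cilia, was higher in the dcKO_Nex-Cre cortex, at 12.5 ± 0.859 against 6.09 ± 0.432 CPM (log2 fold change 1.04, SE 0.11, edgeR adjusted p = 0.00239), and it passed in all 8 fits without 1 library, while *Cfap54* of the same list was at 4.88 ± 0.714 and 5.61 ± 1.49 CPM and did not pass. *Ppp1r1b*, the phosphoprotein DARPP-32 of striatal neurons, was higher at 58.9 ± 19.7 against 30.4 ± 2.26 CPM (log2 fold change 0.96, SE 0.18, edgeR adjusted p = 0.03995), with dcKO_Nex-Cre replicate 2 highest at 88.2 CPM. *Neurod6*, a factor of principal neurons and the *Nex* locus itself, which carries Cre in the mutants and not in the controls (log2 fold change -0.74, SE 0.12, edgeR adjusted p = 0.0192) and the dorsal forebrain factor *Emx1* (log2 fold change -0.60, SE 0.11, edgeR adjusted p = 0.0332) were lower, and *Neurod2* was not called, at 232 ± 16.6 against 223 ± 17.4 CPM. *Ppp1r1b* kept its call in 2, *Neurod6* in 3 and *Emx1* in 1 of the 8 fits without 1 library, and without the 3 libraries highest in *Ttr* none of these genes was called. That last fit had only 5 libraries, and its calls over all genes were 9, beside 144 with all 8 libraries. Loss of these calls therefore cannot be tied to the choroid plexus level.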

How the data were processed

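Counts of 8 libraries, 4 control and 4 dcKO_Nex-Cre, were analysed. The authors deposited unnormalized read counts for each Ensembl gene, from TruSeq libraries of TRIZOL RNA. The labels name the mm10 build, and the aligner, the counting program and the use of strand are not given in the sources used here. Of 48709 genes, 48349 were matched to GENCODE M21 on GRCm38. Groups were compared with edgeR 4.0.16 in R 4.3.3 (filterByExpr with groups, TMM, robust quasi-likelihood F test, two-sided), with Benjamini-Hochberg adjustment over all 16287 genes tested and a threshold of 0.05. Log2 CPM took a prior count of 2. DESeq2 1.42.0 and the other alternatives are given with the closing section. In simulated counts for this comparison with 200 of 16119 genes changed, edgeR's test recovered 200 with the correct sign and called 9 that were unchanged. Recovery at the spread that *Ttr* and the other members had within groups was not tested. Every pair of libraries within a group differed by more than counting noise (lowest chi-square/df 3.52).

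The members and all gene lists were chosen with earlier results of these data known. Named are all 10 members. From the other choroid plexus genes, every gene that passed, the 8 with the highest mean CPM and the most positive and most negative fold change are named. From each neighbouring list, every gene that passed and the 2 with the highest mean CPM are named. The 10 closest patterns are also named. Some items are withheld and are not reported here. Motifs were searched in RefSeq promoters of GRCm38.p6, and the TATA box was added after the promoters were read. Python 3.11.15 was used for tables (pandas 2.3.3) and plots (matplotlib 3.10.9).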

Additional observations from a re-analysis of the deposited data

Results flagged for a closer look

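In dcKO_Nex-Cre replicate 2, *Ttr* at 542 CPM stood apart from the other 3 dcKO_Nex-Cre libraries, of which the nearest was at 12.4 CPM. The same library stood apart with *Folr1* at 2.87 CPM (nearest 0.495), *Cldn2* at 1.88 CPM (nearest 0.412) and the members' summed level of 610 CPM (nearest 51.2). It also stood apart with the striatum list at 378 CPM (nearest 153) and *Ppp1r1b* at 88.2 CPM (nearest 52.0). In dcKO_Nex-Cre replicate 1, the list of cortical projection neurons stood apart at 1708 CPM (nearest 1529). These are gaps beyond Dixon's critical value at 95%. In all 54 groups of 4 libraries were examined and 7 stood apart, where chance gives about 1 in 20, or 2.7. The values share libraries and are not independent of each other. The members and lists were chosen with earlier results of these libraries known, so nothing was read from this count.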

How the results depend on the processing

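The median log2 fold change of the members, -1.45, was -0.29 with at least 10 counts in every library, a filter that drops *Folr1*, *Clic6*, *Slc4a5* and *Otx2* and keeps *Ttr*, *Sostdc1*, *Enpp2* and *Prlr*, and ran from -2.54 to -0.92 when 1 library was left out. The log2 ratio of their summed CPM, -1.65, ran from -3.64 to -0.77. The median of -2.54 was without dcKO_Nex-Cre replicate 2, where *Slc4a5* did not pass the filter and was left out. The value of *Ttr*, -1.92, was -0.94 in lane tag 2 alone and -4.72 with the replicate block. The summed level of the other choroid plexus genes turned from -0.08 to 0.0051 on the log2 scale in lane tag 2 alone and ran from -0.15 to -6.5e-05 without 1 library. Over all genes, 83 lower and 61 higher calls became 150 and 109 without the filter, 279 and 215 with DESeq2, and 19 and 20 with the members' mean level as a covariate. In lane tag 2 alone 140 genes were higher. Without 1 library the counts ran from 9 to 650 lower and from 9 to 625 higher, the lowest without control replicate 1 and the highest without dcKO_Nex-Cre replicate 4. Without the 3 libraries highest in *Ttr*, an alternative chosen after seeing the data, 1 and 8 were left, on 5 libraries. The 1 lower call among the other choroid plexus genes was 2 with DESeq2, 0 with at least 10 counts in every library, in lane tag 2, with the covariate (also chosen after seeing the data) and without the 3 libraries, and 0 to 2 without 1 library, and the 0 higher calls were 0 to 1. The 2 lower calls of the neighbouring lists were 5 with DESeq2, 1 in lane tag 2 and with the covariate, 0 without the 3 libraries and 0 to 3 without 1 library. Their 2 higher calls were 1 without the filter, 0 without the 3 libraries and 1 to 5 without 1 library. Except where an alternative has fewer genes or libraries by construction, the cause was not tested. The replicate numbers share no stated animal or litter, and deviations of same-numbered libraries correlated at 0.13, 0.018, 0.13 and -0.14, so that the numbers were not taken to pair the libraries. With the replicate block, 33 genes were lower and 21 higher over all genes, 0 other choroid plexus genes were lower, and 1 gene of the neighbouring lists was higher. Control replicates correlated best with a mutant library of another number.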

Other observations

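Genes whose pattern was closest to that of *Otx2* alone, picked out after its departure from *Ttr* was seen, included *Sulf1*, *Calml4*, *Fmod*, *1500015O10Rik*, *Oprk1*, *Gpc3*, *Pcp4l1*, *Wdr86* and *Chia1*, at root-mean-square distances of 0.65 to 0.77 over the 8 libraries. Of these, *Sulf1*, *Calml4*, *Fmod*, *1500015O10Rik* and *Gpc3* were also among the 10 closest to the mean pattern of the members. *Chia1*, a chitinase, was highest in control replicate 2, at 1.91 CPM, against 0.280 to 1.53 CPM in the other 7 libraries.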
